A study of Mus musculus with 10 samples.

Results

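The 10 genes described here, of the ATF4 stress response and of amino acid uptake, were followed across MYC/SMARCA4 tumors, SHH medulloblastomas (SHH MB) and P7 cerebella of mice. They were taken by gene symbol (Atf4, Asns, Ddit3, Trib3, Chac1, Sesn2, Slc7a11, Slc7a5, Slc3a2 and Slc1a5) and are 10 of the 50559 genes in the count files. All 10 were among the 29952 genes that passed the filter on low counts. RNA sequencing of formalin-fixed, paraffin-embedded (FFPE) tissue gave 10 libraries, 4 of MYC/SMARCA4 tumors, 3 of SHH MB and 3 of P7 cerebella.

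MYC/SMARCA4 tumors grew from granule cell precursors (GCPs), the dividing precursors of cerebellar granule neurons, of Math1-creERT2::Smarca4fl/fl pups. In these pups tamoxifen starts recombination of the floxed Smarca4 alleles, and the Math1 promoter limits Cre to GCPs and other Math1-positive cells. The GCPs were transduced with a lentivirus that carries murine Myc and GFP behind a CMV promoter, and were injected into the brains of immunodeficient CD1nu/nu hosts. By label, tumor 1 was taken at 112 days, tumor 2 at 96, tumor 3 at 89 and tumor 4 at 79. P7 cerebella came whole from 7-day-old Math1-creERT2::Smarca4fl/fl mice that had received 0.4 mg tamoxifen at day 3, and so share the alleles and the induction with the donors of the tumor cells. SHH MB came from Math1-cre::Smofl/wt mice of 7 days, which the authors describe as an established SHH MB model. What Cre does to the Smo allele of this model is not given in the sources used here, and a loss of Smo is not stated. Age, host strain and transplantation differ between the MYC/SMARCA4 tumors and both other groups, so their part in any difference cannot be told apart from that of the transgenes. Tissue punches also hold vessels, immune cells and host brain, and in such bulk RNA fewer cells of a type and less RNA per cell cannot be told apart. Whether SHH MB and cerebella 1 to 3 came from separate animals is not stated, and p-values measure only the spread between these libraries.

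ATF4 is the transcription factor of the integrated stress response. Kinases that sense amino acid shortage, unfolded protein, viral RNA or mitochondrial and heme stress phosphorylate the initiation factor eIF2, which lowers protein synthesis in general and raises translation of Atf4 mRNA. ATF4 then induces genes of amino acid synthesis and uptake, among them Asns and the transporters studied here, and under longer stress also Ddit3, which encodes the death-promoting factor CHOP. Because control of ATF4 lies largely in translation, counts of its mRNA are not a measure of its protein. In cancers with high MYC, uptake of glutamine and of essential amino acids is a well-known feature.

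The sequence through which ATF4 acts is known as the C/EBP-ATF response element (CARE). Its letters TGATGNAA were searched on both strands of promoter windows from 250 bases before to 50 bases after the gene start, taken from RefSeq (GRCm38.p6). Entries were present for 8 of the 10 genes, all except Slc7a5 and Slc1a5. A match was found in 4 of the 8 windows, and 3.97% of all 32851 windows hold one. The 5 matches are shown because they mark 4 of the 8 genes searched by the sequence of this window alone, whatever their levels. Slc7a5 and Slc1a5 were not searched, and a window without a match does not show that a gene lacks the element elsewhere. Each line gives 30 bases, 5′ to 3′ on the strand of the gene, with the match in capitals.
Asns, chr6:7693214-7693243, minus strand: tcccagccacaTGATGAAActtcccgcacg
Chac1, chr2:119351038-119351067, plus strand: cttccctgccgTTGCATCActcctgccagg
Trib3, chr2:152344028-152344057, minus strand: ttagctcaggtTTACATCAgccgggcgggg
Slc7a11, first match, chr3:50443661-50443690, minus strand: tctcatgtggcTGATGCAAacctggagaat
Slc7a11, second match, chr3:50443642-50443671, minus strand: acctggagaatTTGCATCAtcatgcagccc
In Asns and in the first match of Slc7a11 the letters run on the strand of the gene, and in the other 3 on the opposite strand. The matches begin 23 bases before the start in Asns, 193 before it in Chac1, 66 and 47 before it in Slc7a11 and 14 after it in Trib3. The E-box CACGTG, known as the site of MYC with MAX, was in none of the 8 windows and in 7.15% of all windows. These are matches of letters in 1 window per gene, and nothing about binding was measured.

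Total counts lay between 5663491 and 9352109 per library. A floor of 3 counts corresponded to between 0.307 and 0.744 CPM (counts divided by the library size after TMM scaling), and it covers counting error only. TMM factors were 0.619, 0.802, 1.28 and 0.881 in tumors 1 to 4 and 1.008 to 1.196 in the other libraries. The order of libraries with close levels depends on these factors. In the tumors 614, 2043, 11342 and 8326 reads were counted on Myc, against 91 to 131 in cerebella and 247 to 322 in SHH MB. Smarca4 reached 7.09 to 7.93 log2 CPM in tumors, 7.79 to 8.14 in cerebella and 8.939 to 9.205 in SHH MB. Reads from all its exons, also those of recombined alleles, are counted. Tumor 1 stood apart from the other tumors. It had the fewest Myc counts of the 4, the largest share of mitochondrial reads (6.36%) and the highest summed CPM of the marker lists for Purkinje cells (11330), mature granule neurons (3984) and myelinating oligodendrocytes (3997). Purkinje cell markers summed to 338 to 11300 CPM in tumors, 319 to 582 in SHH MB and 1170 to 1310 in cerebella, mature granule neuron markers to 433 to 3980, 261 to 321 and 675 to 822, and oligodendrocyte markers to 110 to 4000, 127 to 394 and 953 to 1130. Tumor 2 was the next highest in all 3 lists (2672, 1768 and 812). In edgeR 4 of the 6 mature granule neuron markers were called higher in tumors against either group (median log2 fold change 2.599 against cerebella and 3.94 against SHH MB), as were 3 of the 6 Purkinje cell markers against SHH MB and none against cerebella. Of all genes tested, 3.99% were called higher against cerebella and 2.43% against SHH MB. Endothelium ranged from 88 to 387 summed CPM in tumors, 166 to 197 in SHH MB and 179 to 195 in cerebella, and microglia with macrophages from 41.3 to 148, 42.3 to 72.6 and 68.6 to 71.5. Astrocytes with Bergmann glia spanned 438 to 2640, 1760 to 2060 and 2200 to 2270 in the same order, and fibroblasts with meninges 169 to 358, 337 to 394 and 360 to 373. Choroid plexus gave 9.76 to 25.5, 257 to 1260 and 562 to 1170, and GCPs 1070 to 2020, 3080 to 3780 and 1740 to 1940. Within the GCP list, tumor 1 had 5.52 log2 CPM of Mki67 and 4.56 of Top2a, below every other library. Tumors 2 to 4 had 9.48 to 9.88 and 8.89 to 9.02. Atoh1 was also lowest in tumor 1, Zic1 and Barhl1 were highest there among the tumors, and Pax6 lay between. Of the 9 marker lists, no marker was at 0 in any library.

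Per length, Atf4, Slc7a5 and Slc3a2 were the most abundant of the 10 mRNAs in every group, and Trib3 was the least abundant. The scale here is log2 RPKM, reads scaled to library size and to kilobases of annotated exons, which alone allows different genes to be compared. In tumors Atf4 had a level of 5.93 ± 0.27 (SD, n = 4) and Slc7a5 one of 5.77 ± 0.58. Slc3a2 followed with 4.47 ± 0.37, then Slc1a5 with 3.04 ± 1.44, Asns with 2.50 ± 0.40 and Ddit3 with 2.26 ± 0.45. Further down were Slc7a11 (1.45 ± 1.16), Sesn2 (1.15 ± 0.66), Chac1 (0.46 ± 0.72) and Trib3 (-0.99 ± 1.20). Only Slc7a5 and Slc3a2 were neighbors in this order whose means lay more than their combined SDs apart, 1 of 9 neighboring pairs. In cerebella 4 of 9 and in SHH MB 3 of 9 such pairs were separated. Asns stood in the fifth place in tumors, in the eighth in cerebella (0.80 ± 0.13, n = 3) and in the ninth in SHH MB (0.53 ± 0.23, n = 3). Slc1a5 was in the ninth place in cerebella (0.75 ± 0.31), and in the fourth place in SHH MB (1.55 ± 0.29) and in tumors. With the longest transcript as the length, the first 3 places and the last were held by the same genes in each group, while Asns moved to the sixth place in cerebella and the seventh in SHH MB.

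**Figure D1:**
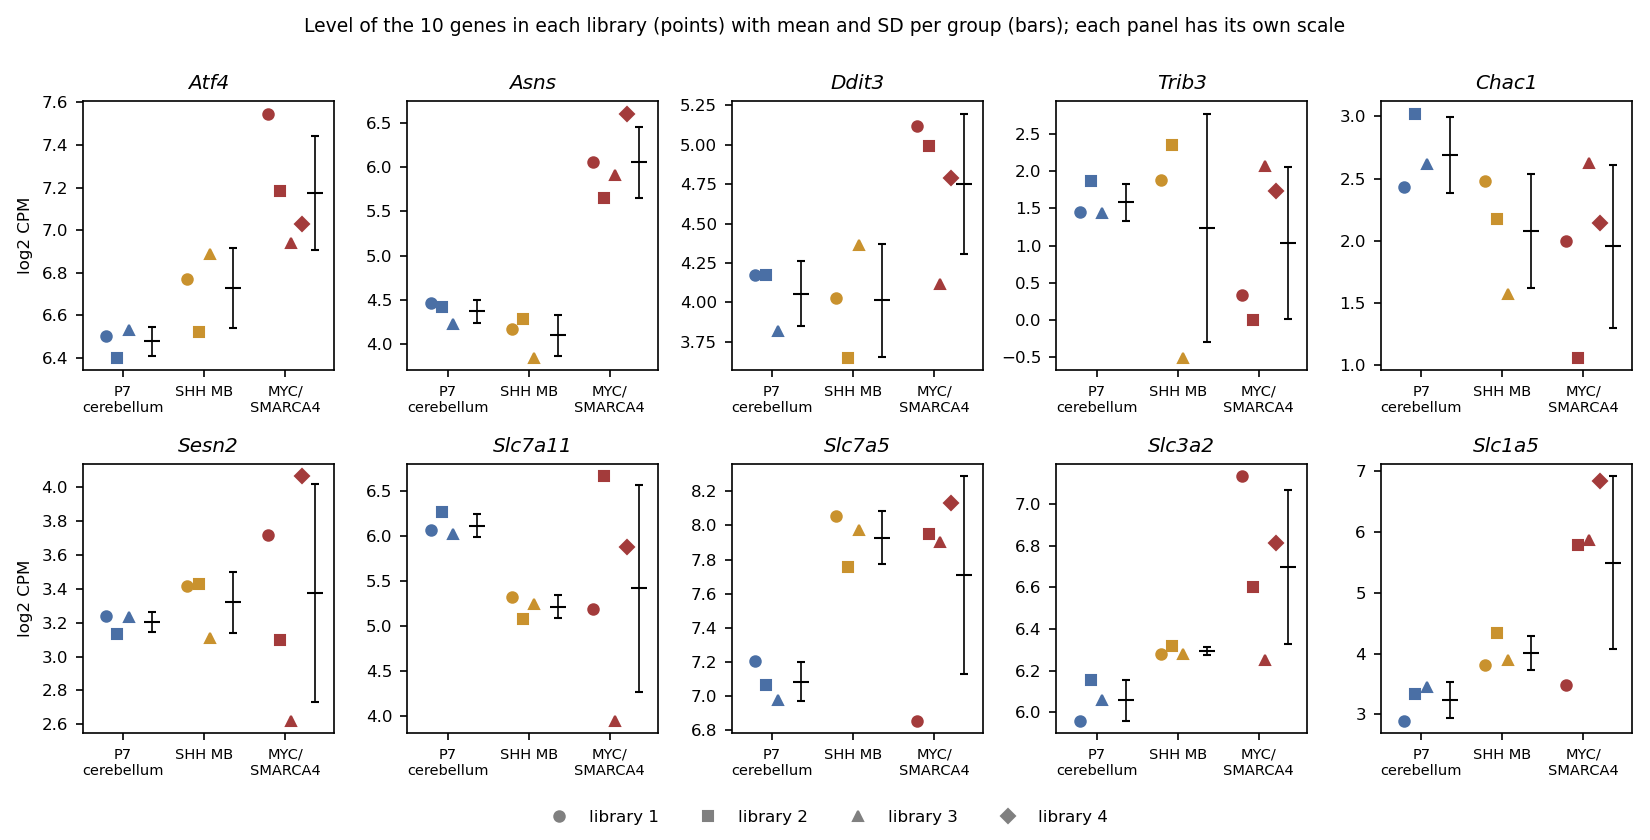
Level of each gene in log2 CPM (vertical axes, 1 scale per panel) in the 3 P7 cerebella, the 3 SHH MB and the 4 MYC/SMARCA4 tumors, with 1 point per library and the group mean with its SD as the bar. After TMM scaling all 4 tumors lie above all other libraries for Asns and for Atf4. The tumors spread widest for Slc1a5, over 3.36 on the log2 scale.

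Asns encodes asparagine synthetase, which makes asparagine from aspartate with glutamine as the nitrogen donor. It rose in MYC/SMARCA4 tumors against both other groups. Counts of Asns were 267, 278, 429 and 796 in tumors 1 to 4, 213, 194 and 129 in cerebella 1 to 3, and 114, 163 and 99 in SHH MB 1 to 3. On the log2 CPM scale these are 6.05, 5.65, 5.91 and 6.61 in tumors, 4.46, 4.42 and 4.22 in cerebella, and 4.17, 4.28 and 3.84 in SHH MB. Every tumor was thus above every cerebellum and every SHH MB, and the lowest tumor, tumor 2, was more than 1 log2 unit above the highest cerebellum. The fold change against cerebella was 3.34 (log2 1.74, SE 0.28, 95% interval 1.13 to 2.35, edgeR adjusted p = 0.00666). Against SHH MB it was 4.02 (log2 2.01, SE 0.29, 95% interval 1.39 to 2.63, edgeR adjusted p = 0.00206). Against SHH MB the call held in each of the 19 other fits tried. Against cerebella it was lost without cerebellum 2 (edgeR adjusted p = 0.0689) or without cerebellum 3 (edgeR adjusted p = 0.0597), while the log2 fold change stayed between 1.45 and 1.87 over the 19 fits. SHH MB and cerebella did not differ in a detectable way (log2 -0.27, 95% interval -0.89 to 0.36, edgeR adjusted p = 0.865). The gene lies on the minus strand at chr6:7671667-7728461 (GRCm39) and 3.34% of its annotated exon bases overlap a non-coding gene of the opposite strand.

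Atf4 itself was highest in tumors by a small margin that did not pass the test. Its log2 CPM was 7.55, 7.18, 6.94 and 7.03 in tumors, 6.50, 6.40 and 6.53 in cerebella, and 6.77, 6.52 and 6.89 in SHH MB. After TMM scaling the 4 tumors were above all other libraries, although tumor 3 exceeded SHH MB 3 only by little. SHH MB 2 lay among the cerebella. The separation of the tumors from SHH MB depends on this scaling and is not present in counts divided by total counts. The log2 difference between tumors and cerebella was 0.72 (SE 0.25, 95% interval 0.18 to 1.25, edgeR adjusted p = 0.098). Between tumors and SHH MB it was 0.46 (SE 0.25, 95% interval -0.07 to 0.99, edgeR adjusted p = 0.324). DESeq2 called Atf4 against cerebella (log2 0.77, adjusted p = 0.0247), as did edgeR without tumor 3 (log2 0.61, adjusted p = 0.0316), a fit that called 34.6% of all genes against cerebella and 23.4% against SHH MB. Of the 10 genes Atf4 varied least among the tumors, over 0.61 on the log2 scale. The 3 genes outside the 10 whose centered log2 CPM differed least from that of Atf4 over the 10 libraries were Crtc2, Cluap1 and Trmt44, with mean absolute differences of 0.075, 0.077 and 0.078 among 13227 genes compared. Atf4 has 3 exons at chr15:80139372-80141745 (GRCm39, plus strand), and no other annotated gene overlaps them.

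Within a library, the ratio of Asns to Atf4 was also highest in the tumors. This ratio needs no scaling between libraries. It and the 3 ratios given further on were formed after the values had been seen and are given as descriptions, without a test. The log2 ratio of counts was -1.496, -1.54, -1.03 and -0.42 in tumors 1 to 4, -2.05, -1.99 and -2.32 in cerebella and -2.62, -2.25 and -3.06 in SHH MB. Its means were -1.12 ± 0.52 (SD, n = 4), -2.12 ± 0.18 (n = 3) and -2.64 ± 0.41 (n = 3), and the tumors overlapped neither of the other groups. Asns was thus higher in tumors by more than Atf4 was, with tumor 4 the highest.

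Ddit3, Trib3, Chac1 and Sesn2, the effectors downstream of ATF4, did not pass the test in any comparison. Ddit3, which encodes CHOP, had 5.12, 4.99, 4.12 and 4.79 log2 CPM in tumors, 4.17, 4.18 and 3.82 in cerebella, and 4.03, 3.65 and 4.36 in SHH MB. Tumor 3 lay within the range of both other groups and the other 3 tumors above it. The log2 difference was 0.74 against cerebella (95% interval 0.09 to 1.39, edgeR adjusted p = 0.152) and 0.77 against SHH MB (95% interval 0.11 to 1.42, edgeR adjusted p = 0.181). Without tumor 3 both passed in edgeR (adjusted p = 0.039 and 0.042). The position of Ddit3, chr10:127124268-127132163 (GRCm39, plus strand), shares 64.1% of its annotated exon bases with the opposite strand of Mars1, a methionyl-tRNA synthetase gene that rose against cerebella (log2 1.05, edgeR adjusted p = 0.0313). The strand setting of the counting is not given in the sources used here, so reads of this pair may not be told apart, and the part of Mars1 in the counts of Ddit3 was not tested.

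Trib3 encodes a pseudokinase that ATF4 and CHOP induce and that restrains them in turn. It was close to the limit of detection, with 4, 4, 28 and 25 counts in tumors, 24, 31 and 17 in cerebella, and 22, 41 and 3 in SHH MB. Tumors 1 and 2 and SHH MB 3 were low and all other libraries were within a narrow band of 1.43 to 2.35 log2 CPM, so that the groups overlapped in all 3 comparisons. The log2 difference between tumors and cerebella was -0.30 with a 95% interval of -1.85 to 1.25, which leaves room for a change in either direction. Chac1, whose product breaks down glutathione, had 15, 10, 42 and 34 counts in tumors, 50, 72 and 41 in cerebella, and 34, 36 and 19 in SHH MB. Tumors 1, 2 and 4 lay below all cerebella and tumor 3 among them on the log2 CPM scale (2.62 in tumor 3, 2.43 to 3.02 in cerebella). The log2 difference was -0.68 (95% interval -1.61 to 0.25, edgeR adjusted p = 0.324), and without tumor 3 it was -1.13 and passed (edgeR adjusted p = 0.0467). Sesn2 encodes a leucine sensor that holds back mTORC1. Its log2 CPM was 3.72, 3.10, 2.62 and 4.07 in tumors, 3.24, 3.14 and 3.23 in cerebella, and 3.42, 3.43 and 3.11 in SHH MB. Tumors 1 and 4 were above and tumors 2 and 3 below all libraries of both other groups, and the log2 difference from cerebella was 0.28 (95% interval -0.48 to 1.04).

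Slc1a5 encodes the exchanger ASCT2, which brings glutamine and other small neutral amino acids into the cell. Of the 10 genes it had the largest fold change against cerebella and the largest spread among tumors. Against SHH MB the fold change of Asns (4.02) was larger. Counts of Slc1a5 were 44, 307, 414 and 937 in tumors 1 to 4, 70, 90 and 75 in cerebella, and 88, 169 and 103 in SHH MB. The corresponding log2 CPM was 3.48, 5.80, 5.86 and 6.84 in tumors, 2.89, 3.34 and 3.46 in cerebella, and 3.80, 4.34 and 3.90 in SHH MB. Tumors 2 to 4 were far above all other libraries, while tumor 1 was level with the highest cerebellum and below all SHH MB. Against cerebella the fold change was 6.48 (log2 2.697, SE 0.58, 95% interval 1.45 to 3.94, edgeR adjusted p = 0.0207). Against SHH MB it was 3.71 (log2 1.89, SE 0.55, 95% interval 0.69 to 3.09) and did not pass (edgeR adjusted p = 0.0729). Both SEs come from the fit that shares 1 spread over all libraries. The SD of Slc1a5 was 1.42 log2 CPM in tumors, 0.30 in cerebella and 0.28 in SHH MB, so these intervals may be too narrow. The call against cerebella was lost when only these 2 groups were fitted (edgeR adjusted p = 0.0996), without tumor 4 (log2 2.19, edgeR adjusted p = 0.0592) and without cerebellum 1, 2 or 3 (edgeR adjusted p = 0.105, 0.117 and 0.121). Without tumor 1 the log2 differences were 3.05 against cerebella (edgeR adjusted p = 0.000124) and 2.22 against SHH MB (edgeR adjusted p = 0.000863), and both passed. Slc1a5 was lowest in the tumor with the fewest Myc counts and the highest neuronal marker sums, and the part of either in its level was not tested. Slc1a5 lies on the plus strand at chr7:16515265-16532731 (GRCm39) without an overlapping gene.

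Slc7a5 encodes LAT1, the carrier of leucine and other large neutral amino acids, which works only as a pair with the heavy chain encoded by Slc3a2. It was higher in both kinds of tumor tissue than in cerebella, apart from tumor 1, but passed the test in no comparison. Its log2 CPM was 6.86, 7.95, 7.90 and 8.13 in tumors, 7.21, 7.06 and 6.98 in cerebella, and 8.06, 7.76 and 7.97 in SHH MB. Tumors 2 to 4 and all SHH MB lay in 1 band above the cerebella, and tumor 1 lay below every other library. The log2 difference between tumors and cerebella was 0.70 (95% interval 0.03 to 1.37, edgeR adjusted p = 0.181), and without tumor 1 it was 0.92 and passed (edgeR adjusted p = 0.0095, beside 16.1% of all genes called). SHH MB exceeded cerebella by 0.85 on the log2 scale (95% interval 0.14 to 1.56, edgeR adjusted p = 0.471) without overlap. Between tumors and SHH MB the difference was -0.15 (95% interval -0.81 to 0.51, edgeR adjusted p = 0.825).

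Slc3a2, the shared heavy chain, had 7.13, 6.60, 6.25 and 6.81 log2 CPM in tumors, 5.96, 6.15 and 6.06 in cerebella, and 6.28, 6.32 and 6.28 in SHH MB. After TMM scaling all tumors were above all cerebella, tumor 3 only just, and tumor 3 was below the SHH MB. In counts divided by total counts tumor 2 lay among the cerebella. The log2 difference from cerebella was 0.68 (SE 0.26, 95% interval 0.13 to 1.23, edgeR adjusted p = 0.125), and it was called by DESeq2 (log2 0.73, adjusted p = 0.0495) and without tumor 3 by edgeR (log2 0.62, adjusted p = 0.0222). Against SHH MB it was 0.44 (95% interval -0.11 to 0.99, edgeR adjusted p = 0.361). At chr19:8684245-8701108 (GRCm39, minus strand), 15.9% of the exon bases of Slc3a2 overlap Snhg1 of the opposite strand, a host gene of small nucleolar RNAs. Snhg1 rose against cerebella (log2 2.03, edgeR adjusted p = 0.00194) and against SHH MB (log2 1.18, edgeR adjusted p = 0.0194), and its part in the counts of Slc3a2 was not tested.

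Slc7a11 encodes xCT, which also pairs with the heavy chain and takes up cystine, the source of cysteine for glutathione, in exchange for glutamate. Its log2 CPM was 5.19, 6.66, 3.94 and 5.88 in tumors, 6.06, 6.27 and 6.02 in cerebella, and 5.32, 5.08 and 5.24 in SHH MB. Tumor 2 was the highest and tumor 3 the lowest of all libraries, a span of 2.72 on the log2 scale, whereas cerebella and SHH MB each spanned 0.24. Neither difference of the tumors passed the test, with -0.39 against cerebella (95% interval -1.37 to 0.59, edgeR adjusted p = 0.58) and 0.52 against SHH MB (95% interval -0.48 to 1.52, edgeR adjusted p = 0.576). The summed CPM of the astrocyte and Bergmann glia list was 437.8, 2641, 579.4 and 2010 in tumors 1 to 4, high in the same tumors 2 and 4 that were high in Slc7a11, and the part of these cells in its level was not tested.

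**Figure D2:**
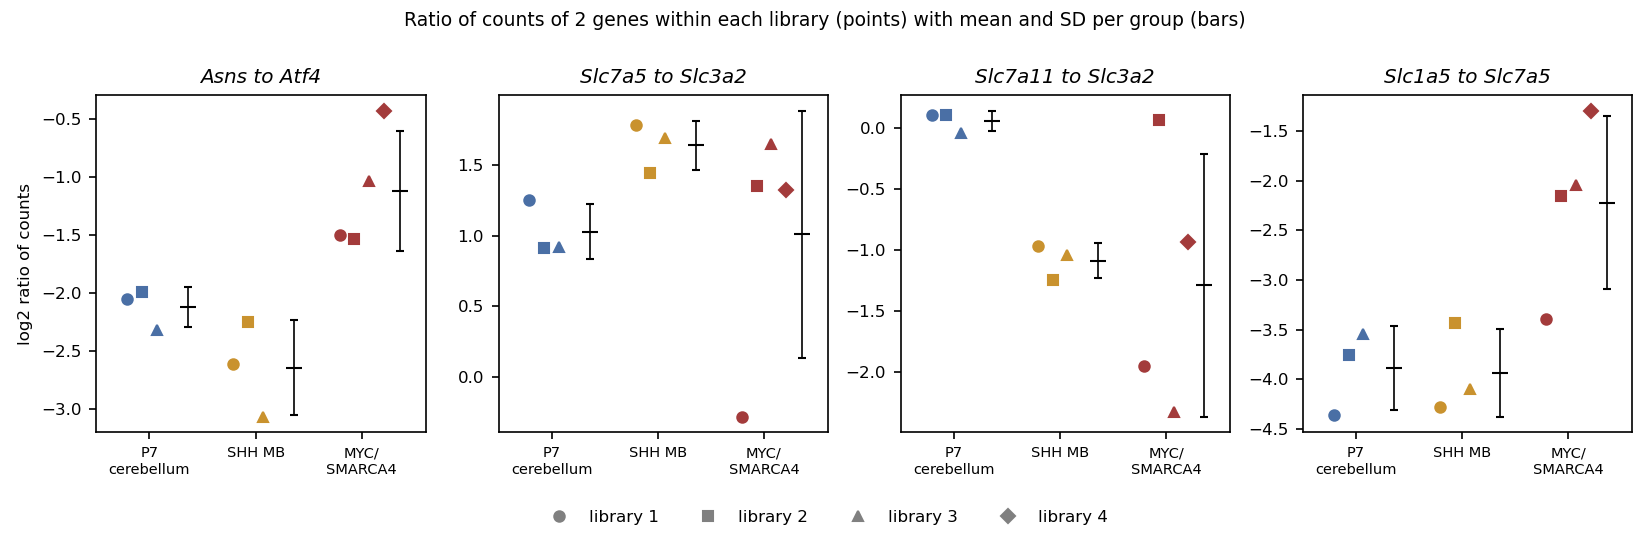
Log2 ratio of the counts of 2 genes within a library (vertical axes) for 4 pairs of genes, with 1 point per library and the group mean with its SD as the bar. The ratio of Asns to Atf4 is higher in all 4 tumors than in any other library, and the ratio of Slc7a5 to Slc3a2 is below 0 only in tumor 1.

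The ratio of light to heavy chain counts, not corrected for gene length, did not overlap between cerebella and SHH MB for either light chain. With 3 libraries each, the levels of 36.8% of all genes do not overlap between these groups. The log2 ratio of Slc7a5 to Slc3a2 was 1.03 ± 0.19 (SD, n = 3) in cerebella and 1.64 ± 0.17 (n = 3) in SHH MB, without overlap. In tumors it was -0.28, 1.35, 1.65 and 1.32, so that tumor 1 alone held fewer reads on Slc7a5 than on Slc3a2. For Slc7a11 to Slc3a2 the ratio was 0.06 ± 0.08 in cerebella and -1.08 ± 0.15 in SHH MB, again without overlap, and -1.95, 0.06, -2.32 and -0.93 in tumors. Tumor 2 thus had the ratio of cerebella, tumor 4 came close to SHH MB, and tumors 1 and 3 were below both groups. The ratio of Slc1a5 to Slc7a5 was higher in every tumor than in any cerebellum or SHH MB, with means of -2.22 ± 0.87 (n = 4), -3.89 ± 0.42 (n = 3) and -3.93 ± 0.44 (n = 3). Tumor 1, low in both transporters, had -3.39 and was just above the highest SHH MB (-3.44).

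**Figure D3:**
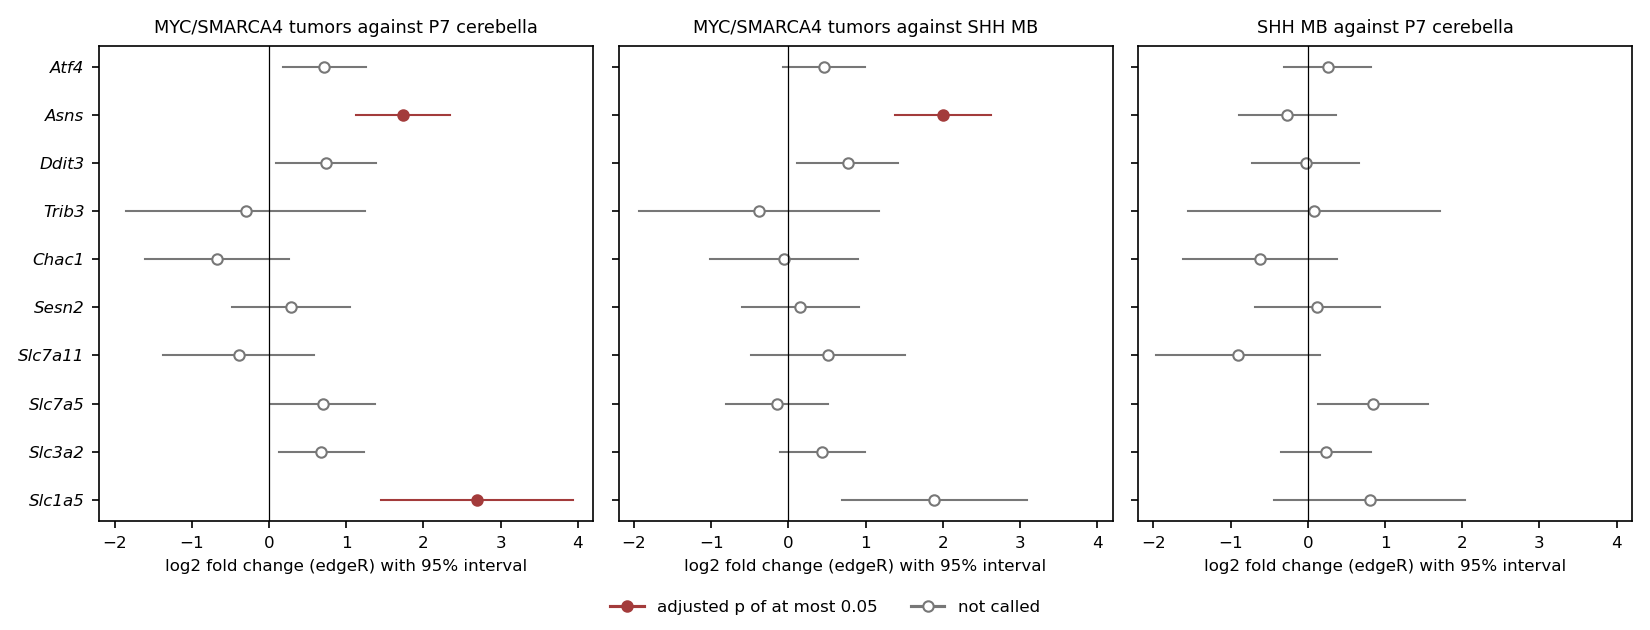
Log2 fold change of the 10 genes (horizontal axes) with its 95% interval in the 3 comparisons, from the edgeR fit of all 10 libraries, with filled points for an adjusted p of at most 0.05. Asns and Slc1a5 are called against P7 cerebella and Asns alone against SHH MB, and no gene is called between SHH MB and cerebella.

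Counted together, 2 of the 10 genes (Asns and Slc1a5) were called higher in MYC/SMARCA4 tumors than in P7 cerebella and none lower, at an edgeR adjusted p of at most 0.05. Of all 29952 genes tested, 6.25% were called in this comparison, 3.99% as higher and 2.27% as lower. At an unadjusted p under 0.05, 6 of the 10 were higher and none lower (15.3% of all genes higher). After TMM scaling all tumors were above all cerebella in 4 of the 10 (Atf4, Asns, Slc3a2 and Slc1a5), as in 10.3% of all genes. For Slc3a2 and Slc1a5 this separation depends on the scaling. The median log2 fold change of the 10 was 0.69, beside -0.05 for all genes. DESeq2 called 4 of the 10 as higher (Atf4, Asns, Slc3a2 and Slc1a5), beside 10.4% of its genes. The shared edgeR fit takes its spread also from cerebella and SHH MB, which varied less than the tumors. Its intervals and p-values for the tumor comparisons may therefore be too small. The edgeR fit of only tumors and cerebella called Asns but not Slc1a5, beside 0.813% of its genes called.

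Against SHH MB, which share the same 4 tumors, 1 of the 10 genes (Asns) was called higher and none lower, beside 4.68% of all genes called and 2.43% called higher and 2.26% lower. After TMM scaling Atf4 and Asns were the 2 genes without overlap of the groups, beside 7.83% of all genes in this direction. For Atf4 this depends on the scaling. At an unadjusted p under 0.05, 3 of the 10 were higher (12.7% of all genes higher) and none lower. The median log2 fold change was 0.45 over the 10 genes and 0.01 over all genes. Neither DESeq2 nor limma on the deposited VST values called any of the 10 lower in tumors, against SHH MB or against cerebella. With the tumors in common, neither comparison is independent of the other. Of the 4 genes with a CARE match in the window, Asns was called in both, while Chac1, Trib3 and Slc7a11 were called in neither.

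Between SHH MB and P7 cerebella none of the 10 genes was called by edgeR, by DESeq2 or by limma on the VST values, beside 0.224% of all genes called by edgeR and 2.55% by DESeq2. At an unadjusted p under 0.05 in edgeR, 1 of the 10 (Slc7a5) passed, beside 8.8% of all genes. Groups did not overlap for 4 of the 10, Slc7a5, Slc3a2 and Slc1a5 higher and Slc7a11 lower in SHH MB, beside 36.8% of all genes, a share close to that of the 10. The shared fit takes its spread also from the tumors, which varied far more among themselves, with a chi-square per degree of freedom between 2 libraries of 26.6 to 99.1 in tumors against 3.76 to 6.22 in the other groups. A fit of these 6 libraries alone called Slc7a5 (log2 0.87, edgeR adjusted p = 2.58e-06) and Slc1a5 (log2 0.84, edgeR adjusted p = 0.00462) as higher and Slc7a11 (log2 -0.89, edgeR adjusted p = 8.32e-06) as lower, beside 23.7% of its genes called. Those 3 of 10 are near that share. Slc3a2 (edgeR adjusted p = 0.129), Asns (adjusted p = 0.368) and Atf4 (adjusted p = 0.101) were not called in it.

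In the lists that follow, counts called by edgeR stand beside 3.99% of all genes higher and 2.27% lower against cerebella. Against SHH MB these shares were 2.43% and 2.26%, and 0.177% were called higher in SHH MB than in cerebella. At an unadjusted p under 0.05, 15.3% of all genes were higher against cerebella, 12.7% against SHH MB and 5.16% in SHH MB against cerebella. DESeq2 called 10.4% of its genes higher against cerebella and 7.87% against SHH MB. Beside the 10, 27 other known ATF4 targets were listed. Of these 4 rose against cerebella and none fell, with a median log2 fold change of 0.64 beside -0.05 for all genes. These were Eif4ebp1 (log2 2.91, edgeR adjusted p = 0.0223), which encodes a repressor of cap-dependent translation, Xpot (1.56, edgeR adjusted p = 0.0315), an exporter of tRNA, Ero1a (1.38, edgeR adjusted p = 0.0336), an oxidase of the endoplasmic reticulum, and Stc2 (1.99, edgeR adjusted p = 0.0476), a secreted glycoprotein. None of the 27 was called against SHH MB by edgeR. There 5 were higher and 1 lower at an unadjusted p under 0.05, and the median was 0.59 beside 0.01. DESeq2 called 2 higher and 1 lower against SHH MB, near its shares of 7.87% and 4.09% over all genes. Psat1, an enzyme of serine synthesis, was the 1 gene of the list called between SHH MB and cerebella, where it rose 4.38-fold in SHH MB (log2 2.13, edgeR adjusted p = 0.0381).

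Of 12 aminoacyl-tRNA synthetases, which load amino acids onto tRNA, 4 rose against cerebella and none fell, with a median of 0.84. Gars (log2 1.16, edgeR adjusted p = 0.0201), Nars (1.14, edgeR adjusted p = 0.0234), Mars1 and Iars (1.23, edgeR adjusted p = 0.0346) were called. Against SHH MB edgeR called none of the 12 (median 0.37), 3 were higher at an unadjusted p under 0.05, and DESeq2 called 2 higher. Between SHH MB and cerebella edgeR and DESeq2 called none, but all 12 were fitted higher in SHH MB (median 0.43 beside -0.09 for all genes). There 4 of the 12 were higher at an unadjusted p under 0.05 in edgeR, beside 5.16% of all genes. A list of 16 genes around eIF2 holds its kinases, Gcn1, Impact, Dele1, Oma1, phosphatase subunits, Eif2s1 and the exchange factor eIF2B. Its phosphatase subunit gene Ppp1r15a is also among the ATF4 targets listed above. Of the 16 genes, 2 rose against cerebella (median 0.66). They were Eif2b1 (1.23, edgeR adjusted p = 0.0271), a subunit of eIF2B, and Eif2ak4 (0.88, edgeR adjusted p = 0.0365), the kinase GCN2 that senses uncharged tRNA. Against SHH MB edgeR called none of the 16, 5 were higher at an unadjusted p under 0.05, and DESeq2 called 2 higher. None of the 18 genes of the IRE1 and ATF6 arms of the unfolded protein response was called in any comparison by edgeR, and all 18 had a positive log2 fold change against cerebella (median 0.47). At an unadjusted p under 0.05, 6 of the 18 were higher against cerebella, 1 against SHH MB and none between SHH MB and cerebella, and DESeq2 called 3 higher against cerebella and none in the other comparisons.

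**Figure D4:**
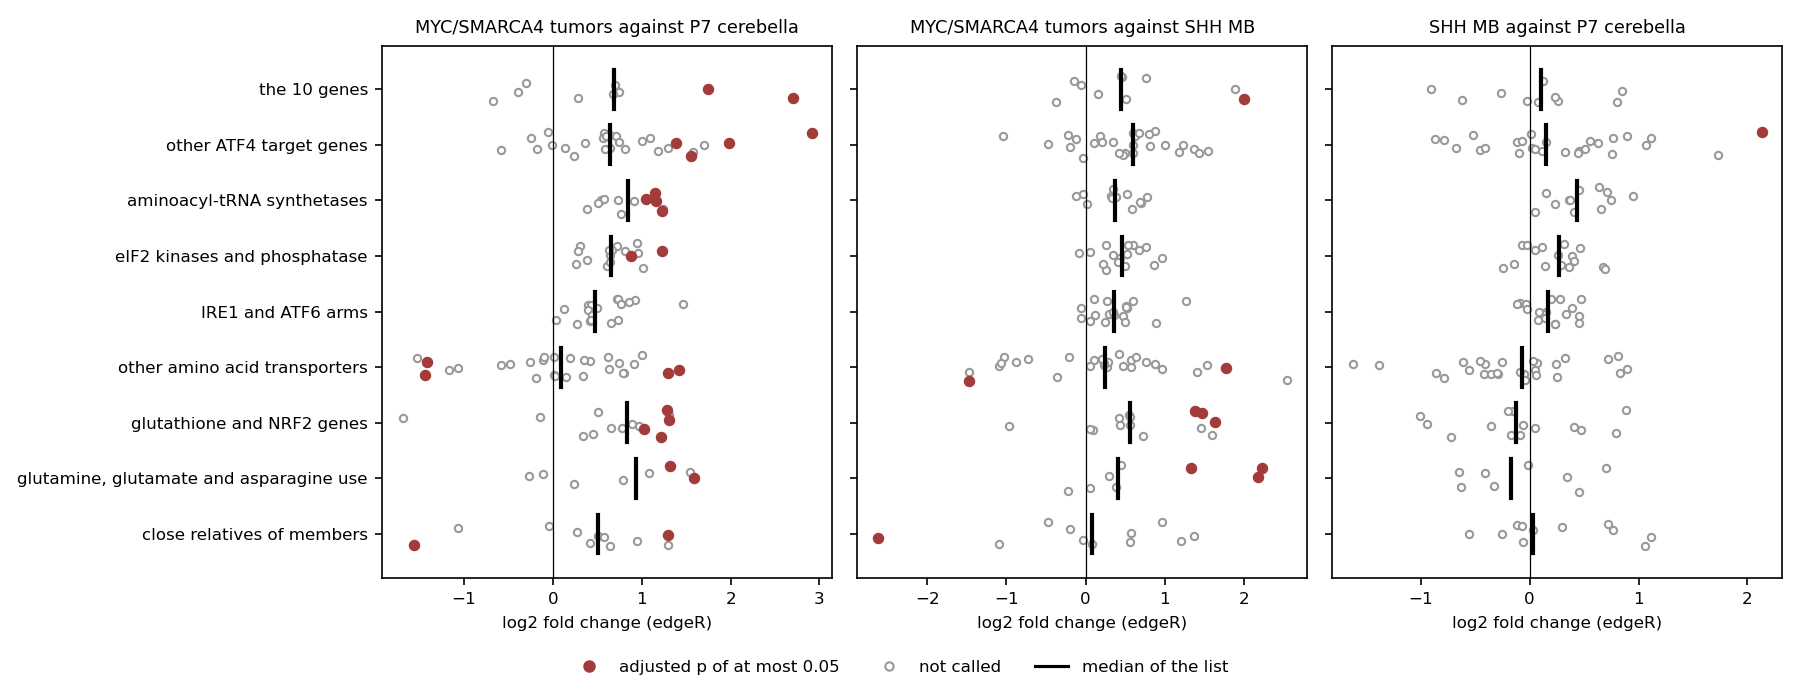
Log2 fold change of each gene (points) of the 10 genes and of 8 further lists in the 3 comparisons, with filled points for an edgeR adjusted p of at most 0.05 and a bar at the median of each list. Against P7 cerebella the median of every list is above 0, and the other amino acid transporters have the median closest to it (0.09).

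The other amino acid transporters went both ways. Of 28 listed, 2 rose and 2 fell against cerebella, beside 3.99% and 2.27% of all genes, with a median of 0.09. Slc7a6, a light chain related to LAT1 (log2 1.30, edgeR adjusted p = 0.0134), and Slc6a15, a carrier of branched-chain amino acids and proline (1.42, edgeR adjusted p = 0.0215), were higher. Slc7a10 (-1.44, edgeR adjusted p = 0.0221) and Slc38a3 (-1.42, edgeR adjusted p = 0.0401), a carrier of glutamine, were lower. Against SHH MB, Slc6a15 was again higher (1.78, edgeR adjusted p = 0.00727) and Slc38a3 lower (-1.47, edgeR adjusted p = 0.0386). That is 1 gene each way of 28, near the shares of 2.43% and 2.26% over all genes.

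Glutathione is made from the cysteine that xCT supplies as cystine. Of 14 listed genes of glutathione and its regulator NRF2, 4 rose against cerebella, Gclc (log2 1.02, edgeR adjusted p = 0.0236), Gss (1.29, edgeR adjusted p = 0.0429), Ggct (1.31, edgeR adjusted p = 0.0439) and Gclm (1.21, edgeR adjusted p = 0.0463). Against SHH MB 3 rose, Gss (1.64, edgeR adjusted p = 0.0195), Gclm (1.38, edgeR adjusted p = 0.032) and Ggct (1.47, edgeR adjusted p = 0.0339), and none fell in either comparison. Gclc and Gclm encode the subunits of the first enzyme of the path and Gss that of its second step, and Ggct belongs to glutathione breakdown.

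Of 8 listed genes of glutamine, glutamate and asparagine use, without Asns, 2 rose against cerebella and 3 against SHH MB, and none fell. Gls2 (log2 1.58, edgeR adjusted p = 0.0147) and the aspartate aminotransferase gene Got2 (1.32, edgeR adjusted p = 0.0132) rose against cerebella. Against SHH MB, Gls2 had 2.23 (edgeR adjusted p = 0.00216), Got2 1.34 (edgeR adjusted p = 0.0103) and Got1 2.18 (edgeR adjusted p = 0.0284). The part of the neuronal markers in these differences was not tested. Of 11 close relatives of the 10 genes, Slc7a6 rose against cerebella and Trib2, a relative of Trib3, fell against cerebella (log2 -1.56, edgeR adjusted p = 0.0369) and against SHH MB (-2.62, edgeR adjusted p = 0.00316). No gene of these lists was called in all 3 comparisons. Slc7a6 stands in 2 of the lists, as do others such as Gpt2, Slc7a1, Slc38a2, Ppp1r15a, Atf5 and Chac2. Counts and medians of the lists are therefore not independent of each other.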

How the data were processed

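RNA of FFPE tissue was extracted, depleted of ribosomal RNA and made into CORALL total RNA libraries, which were read single-end. The authors trimmed reads with Trimmomatic 0.38.1, aligned them to GRCm39 with STAR 2.7.8a and deposited counts per gene from featureCounts 2.0.1, whole numbers without normalization. The strand setting and annotation of the counting are not given in the sources used here. They also deposited log2-scale values of 46123 genes from DESeq2, after a variance-stabilizing transformation (VST).

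Counts of all 10 libraries entered 1 quasi-likelihood fit of edgeR 4.0.16 (R 4.3.3) with TMM factors, filterByExpr and a mean per group. P-values were adjusted by the Benjamini-Hochberg method over 29952 genes. Levels are log2 CPM with a prior count of 2, ratios within a library use counts plus 0.5. Total counts were 5663491 to 9352109 per library. Groups were taken from the labels. Genes, lists and markers were chosen with earlier results of these data known. From each further list up to 3 genes called with the lowest p per comparison, and any gene called in all 3, are named, and Stc2, Iars, Gclm and Slc38a3 are named beyond this rule in 1 comparison each, after their values were seen. One listed gene is not reported here. Mars1 and Snhg1 are named because they overlap Ddit3 and Slc3a2. Positions are from GENCODE on GRCm39. Fits with DESeq2 1.42.0, limma 3.58.1 on the VST values and other filters, scalings, thresholds and sets of libraries were alternatives. Scripts were tested on simulated data with known changes between tumors and cerebella. There edgeR called 1 of 67 genes with a log2 change of 1, 28 of 67 with 2 and 58 of 66 with 4. A gene that was not called may therefore still differ.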

Additional observations from a re-analysis of the deposited data

How the results depend on the processing

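Of 566 log2 fold changes of the 10 genes under other settings, 522 kept direction and side of the threshold, 8 lost and 15 gained a call and 21 changed direction, none of which had been called. The count of genes higher against P7 cerebella (2) became 1 at an adjusted p of at most 0.01, with or without a log2 fold change of at least 1.5, 1 in the fit of only the 2 groups and 4 with DESeq2. With 1 library left out it lay between 0 (without cerebellum 2 or 3) and 5 (without tumor 3, adding Atf4, Ddit3 and Slc3a2), and it was 1 without tumor 4 or cerebellum 1. The share of all genes called higher moved with it, from 3.99% to 0.1% without cerebellum 2, 0.124% without cerebellum 3 and 11.8% without tumor 3. The count of genes lower (0) lay between 0 and 1, Chac1 without tumor 3, where 22.8% of all genes were called lower against 2.27% with all libraries. Against SHH MB the count of genes higher (1) became 2 without a filter on low counts and with DESeq2 (both adding Slc1a5), and lay between 1 and 2 with 1 library left out, 2 without tumor 1 (Slc1a5) or tumor 3 (Ddit3). Of all genes 2.43% were called higher there, 7.87% with DESeq2, 5.91% without tumor 1 and 9.57% without tumor 3. Between SHH MB and cerebella the counts of 0 higher and 0 lower became 2 and 1 in the fit of only the 2 groups, and with 1 library left out the first lay between 0 and 1, Slc7a5 without tumor 1 (2.3% of all genes called higher). The cause of these shifts was not tested. Over all genes, calls numbered 1873 against cerebella and 229 in the fit of only the 2 groups, against SHH MB 1403 and 388, and between SHH MB and cerebella 67 and 6883.

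Deviations of same-numbered libraries from their group means had correlations from -0.27 to 0.16. Whether the numbers pair the libraries cannot be decided from these values, because each group mean rests on few libraries. Those that include a tumor also carry the large differences among the tumors. With the replicate block, 1 gene (Asns, log2 1.53, edgeR adjusted p = 0.038) was called higher against cerebella and Slc1a5 was not (log2 1.98, adjusted p = 0.0608), and Sesn2 changed direction to -0.05 against cerebella and -0.16 against SHH MB. No other call of the 10 genes changed with the block.

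The other changes of direction were small differences of genes not called. With at least 10 counts in every library Sesn2 had -0.026 against cerebella and -0.08 against SHH MB. With 1 library left out it ranged from -0.11 (without tumor 4) to 0.40 and from -0.23 (without tumor 4) to 0.27. Against SHH MB, leaving out 1 library gave -0.935 to 0.22 for Trib3 (highest without SHH MB 2), -0.49 to 0.18 for Chac1 (without tumor 2), -0.005 (without tumor 2) to 0.73 for Slc7a11 and -0.30 to 0.05 for Slc7a5 (without tumor 1). Between SHH MB and cerebella, Ddit3 had 0.015 with RLE factors, 0.022 without a filter, 0.023 with DESeq2 and -0.19 to 0.15 with 1 library left out, and Trib3 had -0.15 with limma on the VST values and -0.52 to 0.61. A prior count of 0.5 moved none of 30 levels by more than their SD, and the longest transcript as length moved 12 of 30. Trib3, with 3 or 4 counts in 3 libraries, is limited by depth.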
